A study of Mus musculus with 9 samples.

Results

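The 10 genes examined here encode surface ligands and receptors through which macrophages stimulate or restrain T cells and are themselves restrained: Cd40, Cd80, Cd86, Cd274, Pdcd1lg2, Icosl, Icam1, Cd200r1, Sirpa and Lilrb4a. They were chosen by name, as the identifiers of the deposited table that carry these symbols in GENCODE M21, and all 10 were found among its 28137 identifiers. The rule itself uses names and no measured value, but the set was put together with earlier results of these data known. The values come from mRNA sequencing of RAW264.7, a mouse monocyte-macrophage leukemia line, so every library is of 1 cell line. Each group held 3 libraries, labeled NC siRNA (a control siRNA), SFRP2 siRNA or RAB6A siRNA. By the labels, 60 nM of siRNA was given for 6 h, complete medium followed for 12 h, and lipopolysaccharide (LPS) at 100 ng/ml for a further 24 h. All groups, NC included, were therefore stimulated with LPS, and no unstimulated library is among them. The title of every library also carries 6H, and what it refers to is not stated. The study describes the sequenced cells as polarized with interferon-γ as well, which the labels do not name. The SFRP2 siRNA libraries are titled siRNA-1 to siRNA-3, and whether each received a different siRNA is not stated. Nothing in the labels says that libraries of a group came from separate cultures, so that the p-values measure only the spread between these libraries, which may be technical.

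T cells need a costimulatory signal beside antigen, and CD80 and CD86 on antigen-presenting cells give it by binding CD28, while CTLA-4 competes for the same ligands and dampens the response. ICOSL binds ICOS on activated T cells, CD40 receives the CD40 ligand of helper T cells, and ICAM-1 holds the contact by binding the integrin LFA-1. PD-L1 (Cd274) and PD-L2 (Pdcd1lg2) engage PD-1 and restrain T cells. SIRPα, CD200R1 and LILRB4 (Lilrb4a) sit on the macrophage itself and send inhibitory signals into it, SIRPα on binding CD47 and CD200R1 on binding CD200.

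The libraries held 41608375 to 47149259 reads in NC, 34743296 to 40562556 in SFRP2 siRNA and 32758729 to 37833880 in RAB6A siRNA. NC thus overlapped with neither other group. The FPKM of a library summed to 351590 to 365419 in NC, 354370 to 366884 in SFRP2 siRNA and 391594 to 397898 in RAB6A siRNA. The highest gene of each RAB6A siRNA library was mt-Co1, at 54675 to 61560 FPKM. No gene exceeded 24782 FPKM in NC or 28120 FPKM in SFRP2 siRNA libraries. The part of these differences in the fold changes below was not tested. The targets of the siRNAs were read first. Rab6a, a small GTPase of the Golgi, was at 24.3, 27.3 and 25.5 FPKM in the NC libraries and at 21.2, 20.7 and 20.4 FPKM in the RAB6A siRNA libraries (log2 fold change -0.31 ± 0.06 (SE), adjusted p = 0.00240 by limma). This was a fall to 0.809 times the NC level, and 73.3% of all genes tested had a larger absolute change. Sfrp2, a secreted Wnt modulator, had 2 to 4 reads in every library. Its mean was 0.0213 FPKM in NC and 0.0401 FPKM in SFRP2 siRNA libraries. Its mRNA was thus barely detected, and no knockdown of it could be read. Of 10 macrophage markers, Lyz2, Csf1r, Spi1 and Fcgr1 fell in the RAB6A siRNA libraries (log2 fold changes -2.03, -1.44, -1.05 and -0.75), Ptprc rose by 0.17, Adgre1, Cd68, Itgam and Cd14 were not called, and Mertk was near 0 in all groups. Their summed level was 4581.5 to 5049.9 FPKM in NC, 4053.9 to 4383.1 FPKM in SFRP2 siRNA and 3978.8 to 4142.1 FPKM in RAB6A siRNA libraries. Of the T cell and dendritic cell markers, Cd3d had 6 reads and Flt3 had 0 reads over all NC libraries, while Lck was at 6.35 FPKM and Xcr1 at 1.12 FPKM in NC, and both were called lower in RAB6A siRNA libraries (log2 fold changes -1.04 and -3.06). Between NC and RAB6A siRNA, the T cell list summed to 6.06 to 6.95 and 2.87 to 3.37 FPKM, nearly all of it Lck, the B cell list to 118.1 to 129.5 and 91 to 102.8 FPKM, nearly all of it Ighm, the dendritic cell list to 1.25 to 1.43 and 0.386 to 0.469 FPKM, in NC mostly Xcr1, and the fibroblast list to 1.44 to 2.79 and 2.37 to 4.03 FPKM. The part of these marker shifts in the results below was not tested.

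On the FPKM scale, which divides by gene length, the 10 genes spanned from abundant to barely detected. In the NC libraries Lilrb4a was the highest at 107.5 ± 6.47 FPKM (mean ± SD, n = 3), followed by Cd40 (66.7), Cd80 (53.4), Sirpa (45.1), Icam1 (44.9), Cd274 (25.5), Cd86 (12.5), Icosl (4.99), Cd200r1 (3.64) and Pdcd1lg2 (0.0216). Of the neighbors in this order, only Sirpa and Icam1 overlapped between libraries. In the RAB6A siRNA libraries Lilrb4a and Cd40 still led, and Icam1 came next. There Icam1 overlapped with Cd80, Sirpa with Cd274 and Icosl with Cd200r1. In the SFRP2 siRNA libraries Cd80 and Cd40 overlapped, at 53.7 and 51.6 FPKM. Summed over the 10 genes, the level was 358.8 to 368.9 FPKM in NC and 729.5 to 865.5 FPKM in RAB6A siRNA libraries. Without Lilrb4a it was 253.4 to 258.7 FPKM in NC, 226.5 to 237.4 FPKM in SFRP2 siRNA and 258.3 to 259.7 FPKM in RAB6A siRNA libraries, so that the sum of the other 9 genes overlapped between NC and RAB6A siRNA.

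**Figure D1:**
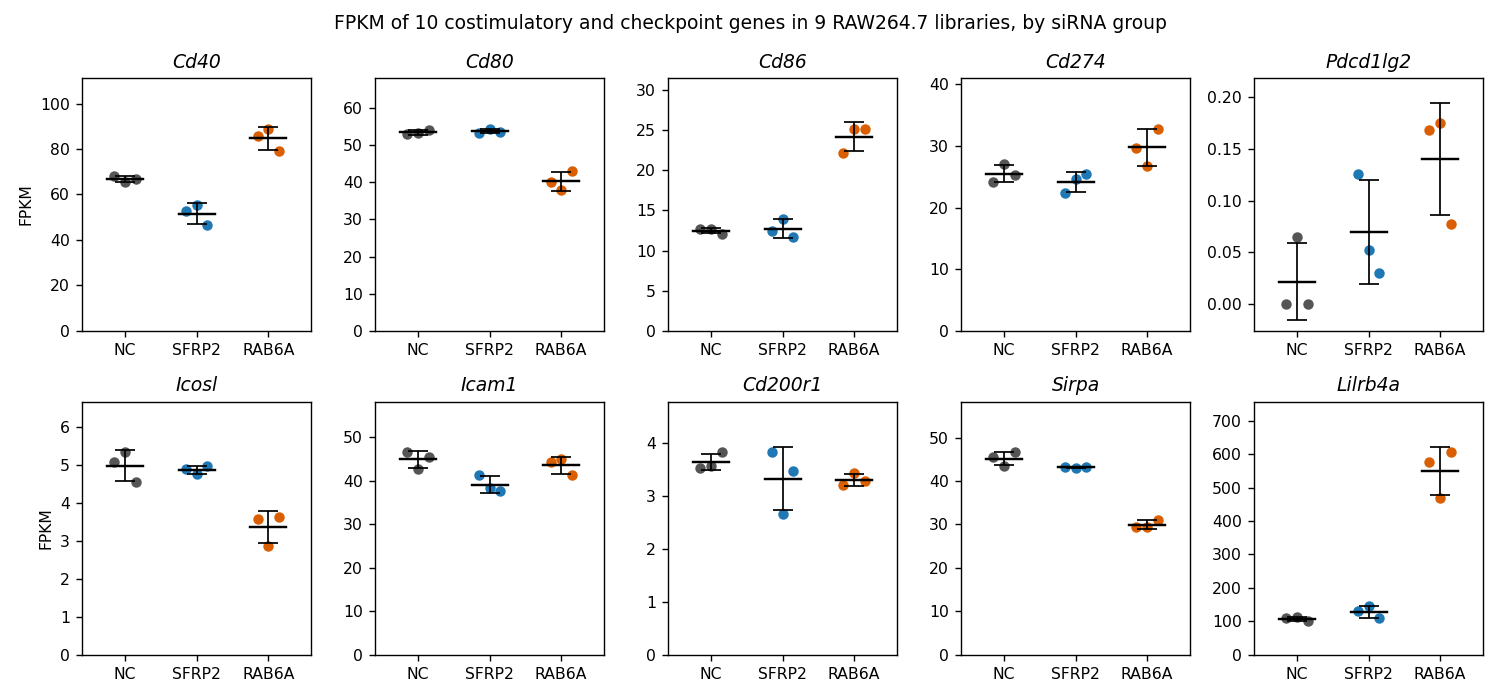
FPKM of the 10 genes (y axes, each from 0 apart from the small margin under Pdcd1lg2) in the 9 libraries by siRNA group (x axes). Points are libraries, the long bar is the mean and the whiskers are the SD (n = 3). The Lilrb4a and Cd86 points of the RAB6A siRNA group stand far above those of both other groups, while those of Icam1 and Cd200r1 lie close to NC.

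The first comparison asked how the genes differed between RAB6A siRNA and NC libraries. Of the 10 genes, 9 passed the filter on low values (a mean of at least 0.5 FPKM over the 6 libraries), and Pdcd1lg2 did not. Lilrb4a, Cd86, Cd40 and Cd274 rose and Sirpa, Icosl and Cd80 fell at an adjusted p under 0.05 (limma on log2(FPKM + 0.1), Benjamini-Hochberg adjustment over 12712 genes). Icam1 and Cd200r1 did not pass. The background was high in this comparison: 37.6% of all genes tested were called higher and 36.5% lower, so that 4 and 3 of 9 are near the background. Groups did not overlap for 7 of the 9, beside 77.4% of all genes. Only Lilrb4a also passed an absolute log2 fold change of 1 (the limit for DEGs), beside 17.3% of all genes with a DEG rise and 12.8% with a DEG fall. The median log2 fold change was -0.05 over the 9 genes and 0.03 over all genes. RNA of whole cultures was measured, so that fewer cells expressing a gene and less of its RNA per cell cannot be told apart.

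The B7 ligands of CD28 and CTLA-4 moved in opposite directions. Cd86 (ENSMUSG00000022901, chr16:36603869-36666081 on the - strand of GRCm38) was at 12.7, 12.7 and 12.1 FPKM in the NC libraries and at 22.1, 25.2 and 25.2 FPKM in the RAB6A siRNA libraries. Every RAB6A siRNA library exceeded every NC library, and the log2 fold change was 0.95 ± 0.07 (SE, adjusted p = 1.4e-05 by limma), a 1.93-fold rise. Cd80 (ENSMUSG00000075122, chr16:38455561-38496335, + strand) was at 52.9, 53.1 and 54.1 FPKM in NC and at 39.9, 37.8 and 43.0 FPKM in RAB6A siRNA libraries. Here every RAB6A siRNA library was below every NC library, with a log2 fold change of -0.41 ± 0.06 (SE, adjusted p = 5.7e-04 by limma). It was -0.22 when corrected for GC content and exon length and -0.25 with quantile normalization. Cd80 was the more abundant of the pair in all 9 libraries. The ratio of Cd86 to Cd80 (FPKM over FPKM) was 0.234 ± 0.00887 in NC, 0.236 ± 0.0193 in SFRP2 siRNA and 0.603 ± 0.0585 in RAB6A siRNA libraries (mean ± SD, n = 3 each), with no overlap between the last and the others. The genes lie 1.79 Mb apart on the same chromosome, with 46 other genes between them.

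**Figure D2:**
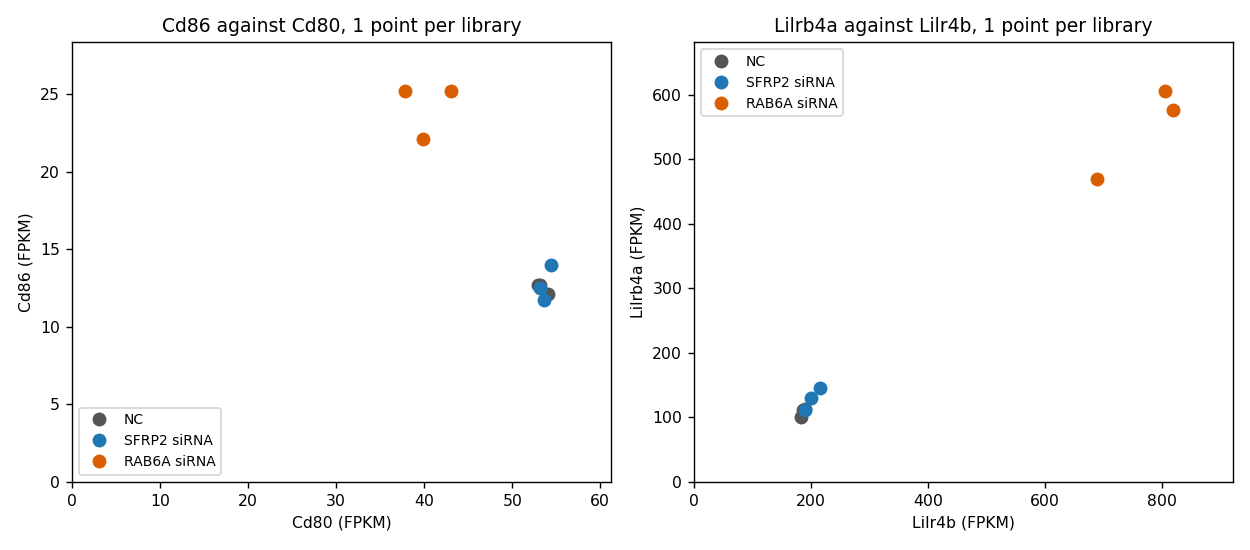
Cd86 against Cd80 (left) and Lilrb4a against its neighbor Lilr4b (right), both axes in FPKM, 1 point per library, colors by siRNA group. RAB6A siRNA libraries lie up and to the left of the others for the B7 pair (ratio 0.603 against 0.234 in NC), and high on both axes for the Lilr pair.

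Icosl (ENSMUSG00000000732, chr10:78069302-78083913, + strand), the ligand of ICOS and another member of the B7 family, fell as Cd80 did. Its levels were 5.08, 5.34 and 4.55 FPKM in NC and 3.59, 2.88 and 3.63 FPKM in RAB6A siRNA libraries. The groups did not overlap, and the log2 fold change was -0.56 ± 0.11 (SE, adjusted p = 0.00266 by limma). Cd40 (ENSMUSG00000017652, chr2:165055627-165072948, + strand), the receptor for the helper T cell signal, was at 68.0, 65.5 and 66.7 FPKM in NC and at 85.9, 89.0 and 79.2 FPKM in RAB6A siRNA libraries. Every RAB6A siRNA library was higher, by a log2 fold change of 0.34 ± 0.06 (SE, adjusted p = 0.00135 by limma), and by 0.54 with the GC and length correction. Both changes were smaller than that of Cd86 on the log2 scale, and neither reached the limit for DEGs.

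Icam1 (ENSMUSG00000037405, chr9:21015985-21028817, + strand), the adhesion ligand, showed no detectable difference. It was at 46.5, 42.6 and 45.5 FPKM in NC and at 44.3, 45.0 and 41.2 FPKM in RAB6A siRNA libraries, and the groups overlapped. The log2 fold change was -0.05 with a 95% interval from -0.19 to 0.10 (adjusted p = 0.523 by limma). An antisense gene, Gm47079, overlaps 11.7% of its exon bases, and had 2 to 26 reads in a library, beside 5687 to 8754 for Icam1. Whether the counting used strand is not stated.

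Since Cd80 and Icosl fell together while Icam1, a classical target of NF-κB, did not differ detectably, the RefSeq promoter windows of these 3 genes (GRCm38.p6, 250 bases before to 50 bases after the annotated start) are printed with the motifs found in them in capitals: TGANTCA (AP-1) in Cd80, GGANNTTCC (κB-type) and then TTCNNNGAA (GAS, bound by STAT factors) in Icam1, and none in Icosl.
Cd80, chr16:38458683-38458982, + strand: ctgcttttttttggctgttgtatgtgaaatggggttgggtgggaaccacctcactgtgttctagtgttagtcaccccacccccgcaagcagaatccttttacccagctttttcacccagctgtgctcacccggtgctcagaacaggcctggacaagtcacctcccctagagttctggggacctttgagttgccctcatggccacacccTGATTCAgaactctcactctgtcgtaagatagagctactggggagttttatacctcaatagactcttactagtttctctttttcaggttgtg
Icosl, chr10:78069118-78069417, + strand: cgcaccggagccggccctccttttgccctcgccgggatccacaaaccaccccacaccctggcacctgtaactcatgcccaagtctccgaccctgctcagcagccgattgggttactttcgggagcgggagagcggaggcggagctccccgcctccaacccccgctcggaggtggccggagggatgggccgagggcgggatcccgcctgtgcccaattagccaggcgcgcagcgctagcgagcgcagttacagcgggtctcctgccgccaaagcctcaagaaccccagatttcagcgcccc
Icam1, chr9:21015690-21015989, + strand: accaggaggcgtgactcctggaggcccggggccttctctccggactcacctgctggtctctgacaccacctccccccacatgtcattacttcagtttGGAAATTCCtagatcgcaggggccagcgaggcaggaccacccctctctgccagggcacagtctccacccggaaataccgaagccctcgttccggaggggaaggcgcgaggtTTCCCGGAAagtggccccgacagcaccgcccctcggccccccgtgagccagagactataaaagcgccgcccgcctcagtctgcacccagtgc
The matches begin 42 bases before the start in Cd80, and 153 and 42 bases before it in Icam1. The 5 motifs searched on both strands also included GAGGAAGT (PU.1) and an IRF-type element, GAAA, any 2 bases and GAAA, and no match overlapped another. Of 32851 promoter windows of the same length, 7.81% hold TGANTCA, 4.26% GGANNTTCC, 8.3% TTCNNNGAA, 3.2% GAGGAAGT and 3.44% the IRF-type element. A match is a run of letters and not a measured binding site, and its relation to the changes in level was not tested. RefSeq windows were at hand for 5 of the 10 genes, and those of Cd274 and Pdcd1lg2 held none of the 5 motifs. The RefSeq start of Cd80 lies inside the gene as annotated in GENCODE M21, downstream of its first base.

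The PD-1 ligands lie side by side on chromosome 19, 22.8 kb apart with no gene between them, and were expressed at very different levels. Cd274 (ENSMUSG00000016496, chr19:29367455-29388095, + strand) was at 24.2, 27.0 and 25.3 FPKM in NC and at 29.7, 26.8 and 32.8 FPKM in RAB6A siRNA libraries. The lowest RAB6A siRNA library was below the highest NC library. The log2 fold change was 0.22 ± 0.09 (SE, adjusted p = 0.0471 by limma), the smallest of the changes called, and the exact two-sided permutation test of FPKM gave p = 0.2 (3 libraries each). The call was lost in 7 of 17 alternatives, including on leaving out RAB6A siRNA replicate 1 (adjusted p = 0.0964), RAB6A siRNA replicate 3 (0.112), NC replicate 1 (0.142) or NC replicate 3 (0.103), all by limma, and with the replicate number as a block (0.0789). The log2 fold change was 0.37 with quantile normalization and 0.43 with the GC and length correction. An antisense gene, AC119228.1, overlaps 14.1% of the exon bases of Cd274. It was at 1.85 to 2.54 FPKM in NC and at 4.61 to 5.46 FPKM in RAB6A siRNA libraries, and its part in the Cd274 value was not tested.

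Pdcd1lg2 (ENSMUSG00000016498, chr19:29410919-29471161, + strand) was near the limit of detection. It had 0, 6 and 0 reads in the NC libraries, 10, 4 and 2 in the SFRP2 siRNA libraries and 12, 13 and 5 in the RAB6A siRNA libraries. All NC reads came from 1 library. Most fragments were counted as 2 reads, so that the reads of the 3 groups correspond to 3, 8 and 16 fragments. In the NC libraries without reads, a count of 0 allows up to 3 fragments. Scaled to depth, the RAB6A siRNA libraries held 6.55 times as many fragments as NC (95% exact interval 1.87 to 35.1, which covers counting error only). For SFRP2 siRNA the ratio was 3.07 with an interval from 0.736 to 17.9. The exact two-sided permutation test of FPKM gave p = 0.1 for RAB6A siRNA against NC, the smallest that 3 libraries against 3 can give.

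Among the inhibitory receptors of the macrophage, Lilrb4a showed the largest change of the 9 genes past the filter. Lilrb4a (ENSMUSG00000112148, chr10:51490956-51496611, + strand) carries inhibitory motifs (ITIMs) in its cytoplasmic tail. It was at 110.6, 111.9 and 100.1 FPKM in NC and at 576.5, 469.7 and 605.9 FPKM in RAB6A siRNA libraries. Every RAB6A siRNA library stood far above every NC library, and the log2 fold change was 2.35 ± 0.10 (SE, adjusted p = 2.2e-06 by limma), a 5.09-fold rise. By size this was not rare in the comparison, since 6.1% of all genes tested had a larger absolute change. Lilrb4a made up 27.9% to 30.6% of the summed FPKM of the 10 genes in NC and 64.4% to 70.0% in RAB6A siRNA libraries.

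Part of the Lilrb4a sequence also belongs to an overlapping gene or occurs in other genes, so its own level is uncertain. Of the 50-base windows along its transcript, 43.5% also occur in another gene. The largest share, 29.9%, occurs in Gm49339, which overlaps 35.3% of its exon bases on the same strand and was itself listed at 0 or 1 read in every library. Lilr4b (ENSMUSG00000112023, chr10:51480632-51486703, + strand), a paired receptor that lacks the inhibitory motifs, ends 4.3 kb before Lilrb4a and shares 20.2% of its windows with it. Lilr4b was at 185.7, 189.9 and 182.0 FPKM in NC and at 819.2, 689.4 and 804.4 FPKM in RAB6A siRNA libraries (log2 fold change 2.05 ± 0.08 (SE), adjusted p = 1.6e-06 by limma). Both neighbors therefore rose, and RAB6A siRNA replicate 2 was the lowest of its group in both. The ratio of Lilrb4a to Lilr4b was 0.578 ± 0.0247 in NC, 0.637 ± 0.048 in SFRP2 siRNA and 0.713 ± 0.0368 in RAB6A siRNA libraries (mean ± SD, n = 3 each), without overlap between the first and the last.

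Sirpa, in contrast, fell. Sirpa (ENSMUSG00000037902, chr2:129592835-129632228, + strand), the receptor for the CD47 signal against phagocytosis, was at 45.4, 43.5 and 46.6 FPKM in NC and at 29.4, 29.4 and 31.1 FPKM in RAB6A siRNA libraries. The groups were far apart relative to their spread, and the log2 fold change was -0.59 ± 0.05 (SE, adjusted p = 4.6e-05 by limma). Its paralogs Sirpb1a, Sirpb1b and Sirpb1c were all under 0.3 FPKM in every library. No 50-base window of the Sirpa transcript occurs in another gene. Cd200r1 (ENSMUSG00000022667, chr16:44765736-44794978, + strand), which signals through DOK adaptors, was at 3.54, 3.57 and 3.83 FPKM in NC and at 3.22, 3.44 and 3.28 FPKM in RAB6A siRNA libraries. Although these values did not overlap, the log2 fold change of -0.13 (95% interval -0.31 to 0.04, adjusted p = 0.145 by limma) did not pass. Of its paralogs, Cd200r4 rose from 0.645 ± 0.113 to 1.89 ± 0.32 FPKM (mean ± SD, n = 3, adjusted p = 2.6e-04 by limma), Cd200r2 was at 1.08 and 0.658 FPKM without passing (adjusted p = 0.0706 by limma), and Cd200r3 was under 0.1 FPKM in both groups.

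The second comparison asked whether the libraries labeled SFRP2 siRNA differed from NC. None of the 9 genes tested passed. At an adjusted p under 0.05, limma called 0 of 12017 genes higher (0%) and 0 lower (0%), with a smallest adjusted p of 0.140. The study itself reported DEGs between SFRP2 siRNA and control cells by a test for counts, which was not repeated here. At an unadjusted p under 0.05, Lilrb4a was higher and Cd40 and Icam1 were lower, beside 7.73% of all genes higher and 10.7% lower. Cd40, at 52.8, 55.5 and 46.6 FPKM, was below every NC library (log2 fold change -0.37 ± 0.07 (SE), adjusted p = 0.163 by limma). Icam1, at 41.3, 38.4 and 37.5 FPKM, was also below every NC library (-0.20 ± 0.06 (SE), adjusted p = 0.182 by limma). With Sirpa at 43.3, 42.9 and 43.1 FPKM, 3 of 9 genes lay below NC without overlap, beside 13.9% of all genes. Lilrb4a, at 129.5, 145.6 and 110.8 FPKM, overlapped with NC (0.25 ± 0.10 (SE), adjusted p = 0.255 by limma).

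The remaining genes differed little between SFRP2 siRNA and NC libraries, and their intervals cover only the spread between these libraries. Cd80, at 53.2, 54.4 and 53.6 FPKM, had a 95% interval of the log2 fold change from -0.08 to 0.10, the narrowest of the 9. For Cd86, at 12.5, 14.0 and 11.7 FPKM, it ran from -0.15 to 0.19, and for Cd274, at 22.4, 24.7 and 25.5 FPKM, from -0.23 to 0.08. For Icosl, at 4.90, 4.76 and 4.97 FPKM, it ran from -0.20 to 0.15. Cd200r1, at 3.83, 2.67 and 3.48 FPKM, had the widest interval of the 9, from -0.45 to 0.17. When the recovered reads were tested with voom, 41 of 11680 genes (0.351%) were called, and Cd40 was among them (log2 fold change -0.38, adjusted p = 0.0412 by limma's voom). Over all 17 alternatives, the adjusted p of Cd40 ran from 0.0412 to 0.447.

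**Figure D3:**
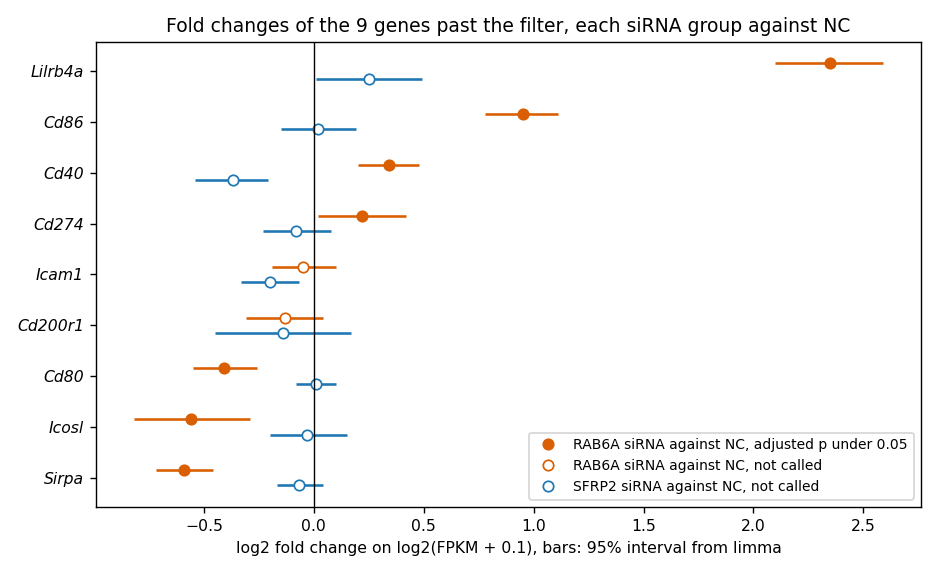
Log2 fold changes of the 9 genes past the filter (x axis, on log2(FPKM + 0.1)) for RAB6A siRNA against NC (orange) and SFRP2 siRNA against NC (blue), genes on the y axis, with 95% intervals from limma as bars. Filled points passed an adjusted p of 0.05. Both comparisons use the same 3 NC libraries. Cd40 lies right of 0 for RAB6A siRNA (0.34) and left of 0 for SFRP2 siRNA (-0.37).

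The comparisons with NC share the NC libraries, so the RAB6A and SFRP2 siRNA libraries were also set against each other. Of the 9 genes, 7 differed between RAB6A and SFRP2 siRNA libraries, 4 higher and 3 lower in the former, and these were the genes called against NC. Of all 12764 genes tested, 37.6% were called higher and 35.8% lower, and 77% did not overlap between the groups, beside 7 of the 9. Lilrb4a was higher by 2.10 ± 0.13, Cd86 by 0.92 ± 0.09 and Cd40 by 0.72 ± 0.08 (log2 ± SE, adjusted p = 1.2e-05, 7.1e-05 and 1.8e-04 by limma). The Cd40 means lay on either side of NC, so that its difference here necessarily exceeded either of its changes against NC. Cd274 was higher by 0.30 ± 0.09 (adjusted p = 0.0198 by limma), and here the groups did not overlap. This call was lost without RAB6A siRNA replicate 1 (adjusted p = 0.0507 by limma) or SFRP2 siRNA replicate 1 (0.0667 by limma). On the log2 scale the differences were -0.53 for Icosl, -0.52 for Sirpa and -0.42 for Cd80, and with the GC and length correction -0.15 for Cd80 and 0.55 for Cd274. Icam1 was at a difference of 0.15 (95% interval 0.01 to 0.30, adjusted p = 0.0582 by limma) and was called in 6 of 17 alternatives. For Cd200r1 the difference was 0.01 with an interval from -0.31 to 0.33.

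Genes of the surrounding pathways were taken from lists written by hand. Of 30 other costimulatory, coinhibitory and adhesion ligands, 19 were tested in RAB6A siRNA against NC, 4 rose, 8 fell and 7 did not pass (median log2 fold change -0.22). Nectin2 (1.63) and Vsir (1.62), the gene of the checkpoint protein VISTA, were the highest. Icam2 (-2.87) and Cd48 (-2.65), ligands of LFA-1 and of CD2 and CD244, were the lowest. Icam2 fell from 1.80 to 0.188 FPKM while its relative Icam1, at 44.9 and 43.5 FPKM, did not pass. Vsir, at 8.11 ± 0.57 FPKM in NC and 25.1 ± 0.769 FPKM in RAB6A siRNA libraries (mean ± SD, n = 3), was called higher with an adjusted p of 1.8e-06 by limma.

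The other inhibitory and paired receptors of myeloid cells mostly fell, with 9 of 15 tested (25 listed) lower, 4 higher and 2 not called, and a median log2 fold change of -1.02. Cd300a (-2.13) and Pilra (-1.42) were the lowest. Lilr4b (2.05) and Cd200r4 (1.41) were the highest. In the list of signaling molecules behind such receptors, 5 of 14 rose and 7 fell (median -0.12). The adaptor Dok1 (1.14) and the kinase Fgr (0.91) were the highest, and the kinase Csk (-1.17) and the phosphatase SHP-2 (Ptpn11, -1.06) were the lowest.

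Of 15 genes of CD40 signaling, 8 rose, 6 fell and 1 did not pass (median 0.29). The NF-κB inducing kinase (Map3k14, 1.10), which starts the noncanonical NF-κB pathway, and the adaptor Traf5 (1.06) were the highest. Tnfaip3 (19.2 FPKM in NC and 9.56 FPKM in RAB6A siRNA libraries), which encodes the NF-κB inhibitor A20, and Traf3 (-0.94) were the lowest. Of 22 tested genes known to control PD-L1, PD-L2 or B7 levels (23 listed), 5 rose, 12 fell and 5 did not pass (median -0.25). B3gnt3 (1.16), a glycosyltransferase that modifies PD-L1, and Cmtm4 (1.03), which stabilizes it, were the highest. Irf4 (-1.90) and Irf1 (-1.09), the latter an interferon-induced activator of Cd274 transcription, were the lowest. These counts stand beside the 37.6% of all genes called higher and 36.5% called lower. In SFRP2 siRNA against NC, 0 of the 84 genes tested from these 5 lists were called by limma. At an unadjusted p under 0.05, 2 were higher and 16 lower, beside 7.73% of all genes higher and 10.7% lower in that comparison, in lists whose medians lay between -0.08 and -0.01.

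**Figure D4:**
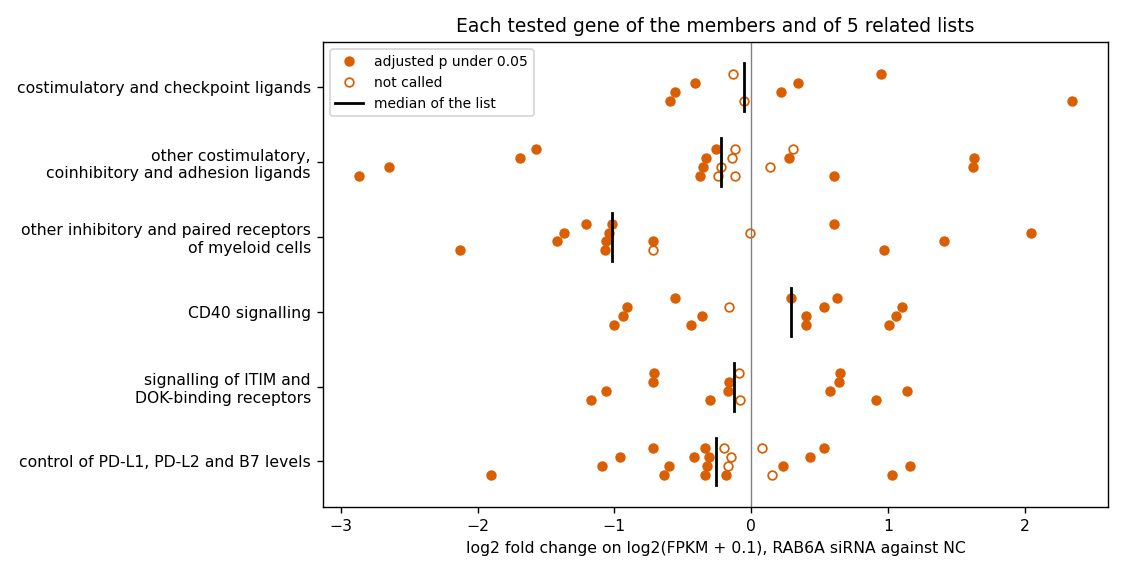
Log2 fold changes of RAB6A siRNA against NC (x axis, on log2(FPKM + 0.1)) for each tested gene of the 10 costimulatory and checkpoint genes and of 5 related lists (y axis). Filled points passed an adjusted p of 0.05 and the black bar is the median of the list. Medians run from -1.02 (other inhibitory and paired receptors) to 0.29 (CD40 signaling).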

How the data were processed

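Paired-end mRNA libraries of RAW264.7 cells were used, 9 in all and 3 each labeled NC, SFRP2 siRNA and RAB6A siRNA. The study's methods give another siRNA concentration, transfection reagent and medium than the labels, and add interferon-γ. The authors deposited gene-level FPKM, which are fragments scaled to gene length and to library size. The submitters' processing notes name HISAT2, featureCounts and Subread. The genome build, annotation and strand setting are not given in the sources used here. Of 28137 Ensembl identifiers, 27533 were named in GENCODE M21 (GRCm38), whose positions and exon lengths were used. FPKM multiplied by exon length gave whole reads, within 0.03 of a read, in all libraries for 27084 genes (98.4%), which gave the depths and the reads of single genes.

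Groups were compared by limma 3.58.1 (R 4.3.3; lmFit, eBayes with trend) on log2(FPKM + 0.1), for genes with a mean of at least 0.5 FPKM over the 6 libraries compared, with Benjamini-Hochberg adjustment over all genes tested. The study's methods name a test for counts, and the deposited values are not counts. DEGs also needed a log2 fold change beyond 1 in size. Fold changes on this scale understate those of low genes. Single genes were also compared by exact two-sided permutation tests, whose smallest p is 0.1. The scripts were tested on simulated data. Replicates were compared in pairs, and none matched within sampling noise. The genes (by name) and the lists were chosen with earlier results of these data known. Genes named from a related list are those with the 2 highest and 2 lowest log2 fold changes of RAB6A siRNA against NC. Same-numbered libraries did not deviate together (correlations -0.08 to 0.05). Alternatives were the pseudocounts 1 and 0.01, no filter, a mean of at least 1 FPKM, median-of-ratios scaling, quantile normalization, no trend, a block for the replicate number, a joint fit of all 9 libraries, a correction for GC content and exon length (splines with 5 degrees of freedom), voom on the recovered reads, and leaving out each library. Promoter sequences come from RefSeq (GRCm38.p6). Other steps used Python 3.11.15 with numpy 2.4.6, pandas 2.3.3, scipy 1.17.1 and matplotlib 3.10.9.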

Additional observations from a re-analysis of the deposited data

Results flagged for a closer look

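Of the 9 genes tested, 7 differed between the RAB6A siRNA and SFRP2 siRNA libraries by a test of that difference (limma, Benjamini-Hochberg adjustment over all genes tested), which is the difference between their changes against the shared NC libraries. On the log2 scale, RAB6A siRNA minus SFRP2 siRNA, the values were 0.72 for Cd40, -0.42 for Cd80, 0.92 for Cd86, 0.30 for Cd274, -0.53 for Icosl, -0.52 for Sirpa and 2.10 for Lilrb4a. The adjusted p by limma ran from 1.2e-05 (Lilrb4a) to 0.0198 (Cd274). Of all 12764 genes tested in this comparison, 37.6% were called higher and 35.8% lower, so that 7 of 9 is near the background. Groups did not overlap for any of the 7, and in this comparison 77% of all genes tested did not overlap.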

How the results depend on the processing

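In RAB6A siRNA against NC, 6 calls (Cd40, Cd80, Cd86, Icosl, Sirpa and Lilrb4a) kept their direction and stayed past the threshold in all 17 alternatives, and the same 6 did so in RAB6A siRNA against SFRP2 siRNA. Sizes moved by over 1.5 times under some settings. Against NC, Cd80 went from -0.41 to -0.22 with the GC and length correction and -0.25 with quantile normalization, and Cd40 from 0.34 to 0.54 with that correction. Cd274 went from 0.22 to 0.43 and 0.37 under these 2 settings. Between RAB6A and SFRP2 siRNA libraries the correction took Cd80 from -0.42 to -0.15 (adjusted p = 0.0368 by limma) and Cd274 from 0.30 to 0.55. Cd274 lost its call against NC without the filter (adjusted p = 0.0807 by limma), without the trend (0.0811) and under the replicate block, where 6, 0 and 7 members were called in the 3 comparisons. Without the filter Pdcd1lg2 was called in its place. Leaving out 1 library gave Cd274 log2 fold changes from 0.15 to 0.29 against NC. In the direct comparison of RAB6A with SFRP2 siRNA libraries the same range was 0.22 to 0.37 for Cd274 and 0.13 to 0.19 for Icam1. Under voom, 1 gene (Cd40) was called in SFRP2 siRNA against NC. Some values near 0 changed sign and were not called under either setting. In RAB6A siRNA against NC, Icam1 was at 0.12 with quantile normalization and Cd200r1 at 0.01 with the GC and length correction. In SFRP2 siRNA against NC with that correction, Cd80 was at -0.06, Cd86 at -0.04, Icosl at 0.04 and Sirpa at 0.02. Between RAB6A and SFRP2 siRNA libraries, Cd200r1 was at -0.07 with quantile normalization. On leaving out 1 library, SFRP2 siRNA against NC ran from -0.05 to 0.08 for Cd86 and from -0.25 to 0.00 for Cd200r1. For Icosl it ran from -0.09 to 0.02, and for Cd200r1 between RAB6A and SFRP2 siRNA libraries from -0.14 to 0.12. The cause was not tested. Low counts limit Pdcd1lg2 and Sfrp2, and 3 libraries a group limit all other values.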

Other observations

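Of 8 listed partner receptors, 4 had a mean of at least 0.5 FPKM in every group, namely Pdcd1, Itgal, Itgam and Itgb2. Of the others, Ctla4 and Cd40lg had no row, and Cd28 and Icos were at or under 0.201 FPKM in every library. Pdcd1, which encodes PD-1, was at 2.46 ± 0.646 FPKM in NC and fell to 1.08 ± 0.27 FPKM in RAB6A siRNA libraries (mean ± SD, n = 3, log2 fold change -1.12, adjusted p = 0.00290 by limma). Itgb2, the β chain of LFA-1, rose from 90.9 ± 3.49 to 130.0 ± 5.43 FPKM (log2 fold change 0.52, adjusted p = 1.3e-04 by limma), while its partner chain Itgal, at 13.2 and 14.2 FPKM, did not pass (adjusted p = 0.129 by limma), nor did Itgam, at 23.1 and 24.7 FPKM (adjusted p = 0.435 by limma).

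Over the 9 libraries, the gene whose log2 level was most alike was Hipk3 for Sirpa (Pearson r = 0.999), Pcmtd1 for Lilrb4a (0.998), Cpne8 for Cd80 (0.997), Gm2a for Cd86 (0.996), Psmd4 for Cd40 (0.989), Gm32856 for Icosl (0.983), Tmco3 for Icam1 (0.965), Gm9108 for Cd200r1 (0.956) and Tmem220 for Cd274 (0.955). The points share the 3 groups, so that any gene that differs between RAB6A siRNA and the other libraries scores high. At r over 0.95, 2332 of 12378 genes were as alike to Sirpa, 2063 to Cd80, 1594 to Lilrb4a and 1447 to Cd86, while 91 were to Cd40, 166 to Icosl, 3 to Icam1 and 1 each to Cd274 and Cd200r1. Within groups, the deviations of Lilrb4a and Lilr4b from their group means had r = 0.94 over the 9 libraries, which share depth and, in part, sequence.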
